A study of Homo sapiens with 6 samples.

Results

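CD44 is the main cell-surface receptor for hyaluronan, and the genes described here are CD44 and 6 genes of hyaluronan turnover, HAS2, HAS3, HYAL1, HYAL2, HYAL3 and TMEM2. They were taken by symbol, and all 7 were found among the 56638 genes of the count tables. The cells carry the label SW480, a human colorectal adenocarcinoma line. The 3 TGFB1 libraries came from cells given TGF-β1, a cytokine that signals through receptor kinases and SMAD factors, repeatedly at 10 ng/ml. The 3 Control libraries came from cells left untreated, and both groups grew in serum-containing medium at passages 16 to 19. The comparison asks which genes respond to TGF-β1 in this line. How long the exposure lasted is not stated in the labels.

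Hyaluronan is a long, unsulfated sugar polymer of the pericellular matrix, built at the plasma membrane by the hyaluronan synthases (HAS1, HAS2 and HAS3) from UDP-glucuronic acid and UDP-N-acetylglucosamine. It is cut by hyaluronidases, among which HYAL2 is tethered to the cell surface and HYAL1 works in acidic compartments such as lysosomes. CD44 binds the polymer through its link domain, connects to the actin cytoskeleton through ezrin, radixin and moesin, and in the gut epithelium marks the crypt base. Many carcinomas express CD44, in isoforms that differ by alternative splicing. The deposited counts are per gene and do not separate these isoforms.

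The upstream flanks of the 3 changed genes shown here, CD44, HYAL1 and HYAL2, give the sequence next to the genes the results turn on. Each is the 250 bases before the gene's annotated start in RefSeq (GRCh38.p14), 5′ to 3′ on the gene's own strand, and 6 of the 7 genes matched that table (not HAS2). Capitals mark 3 motifs on either strand: the SMAD box CAGAC (or GTCTG), the E-box CAGGTG (or CACCTG) that ZEB and SNAI repressors can bind, and the GC box GGGCGG (or CCGCCC) of SP1-type factors. The CD44 window is chr11:35138921-35139170 on the + strand, HYAL1 is chr3:50303575-50303824 on the - strand, and HYAL2 is chr3:50322746-50322995 on the - strand.
CD44: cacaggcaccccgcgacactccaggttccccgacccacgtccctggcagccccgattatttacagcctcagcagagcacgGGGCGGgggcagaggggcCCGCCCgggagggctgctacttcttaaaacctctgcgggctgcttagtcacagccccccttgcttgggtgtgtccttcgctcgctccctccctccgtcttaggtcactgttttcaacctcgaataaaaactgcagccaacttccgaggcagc
HYAL1: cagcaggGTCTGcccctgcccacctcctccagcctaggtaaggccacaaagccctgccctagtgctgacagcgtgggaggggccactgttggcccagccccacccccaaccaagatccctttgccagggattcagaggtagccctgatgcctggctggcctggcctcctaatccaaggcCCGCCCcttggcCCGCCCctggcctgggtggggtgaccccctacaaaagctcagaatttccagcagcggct
HYAL2: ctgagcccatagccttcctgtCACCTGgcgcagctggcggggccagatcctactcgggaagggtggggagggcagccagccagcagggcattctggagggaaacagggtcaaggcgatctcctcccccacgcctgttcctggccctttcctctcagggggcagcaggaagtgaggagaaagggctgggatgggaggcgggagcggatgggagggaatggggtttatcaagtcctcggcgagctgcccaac

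The CD44 window held 2 GC boxes and no SMAD box or E-box. The HYAL1 window held 1 SMAD box and 2 GC boxes, and the HYAL2 window 1 E-box. Over 35116 RefSeq windows of the same length, 38.0% held a SMAD box, 17.5% an E-box and 42.6% a GC box. The AP-1 motif TGANTCA, found in 6.57% of all windows, was in none of the windows of the 6 matched genes. These matches describe letters in short windows next to an annotated start, and no binding was measured.

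Total counts in genes ran from 13012898 to 16005222 in the TGFB1 libraries and from 13828306 to 15298355 in the Control libraries. Levels below are CPM, a gene's reads relative to the library total, on library sizes scaled by TMM, a factor that balances the libraries on the bulk of their genes. A count of 0 over the 3 libraries of a group allows up to 0.0677 CPM in TGFB1 and 0.0698 CPM in Control cells, counting error only. The labels do not state whether each library had its own culture, and p-values therefore reflect only the spread among these libraries, which may be technical. Of 11 epithelial and intestinal markers only 4 reached 1 CPM in Control cells. KRT8 stood at 1711 CPM there, while CDX2 and ASCL2 had 0 counts in all libraries and VIL1, CDX1 and KRT20 stayed at 0.151 CPM or less in both groups, so these intestinal markers of the labelled cell type are absent or near absent. The epithelial markers EPCAM and CDH1 were low, EPCAM at 4.06 CPM in TGFB1 and 6.94 CPM in Control cells and CDH1 at 0.271 CPM in TGFB1 and 1.09 CPM in Control cells. KRT18, another epithelial marker of the list, stood at 125 CPM in TGFB1 and 183 CPM in Control cells, while KRT19 stayed at 0.131 CPM or less. LGR5, also of the list, was at 1.03 CPM in TGFB1 and 0.30 CPM in Control cells. Whether the libraries come from the labelled line was not tested. PTPRC, which marks leukocytes, and PECAM1 and KDR, which mark endothelium, were at 0 in all libraries.

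Of the 7 genes, CD44, HAS2 and HYAL2 rose and HYAL1 fell in TGFB1 cells, while HAS3, HYAL3 and TMEM2 did not pass the test. CD44 had 2.56 times its Control level, HAS2 1.46 times and HYAL2 1.17 times, and HYAL1 was 1.67-fold lower. Calls are from the quasi-likelihood test of edgeR at a Benjamini-Hochberg adjusted p under 0.05, adjusted across the 14897 tested genes. It called 47.3% of all tested genes (23.4% higher and 23.9% lower, or 3483 and 3561 genes, while library size alone as the scale gave 4216 and 2879), so 4 called of 7 is near the background and is not a result about these genes as a set. All 7 passed the filter on low counts. Their median log2 fold change was 0.05, against 0.00033 over all tested genes, and their median absolute log2 fold change was 0.42, against 0.24.

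**Figure D1:**
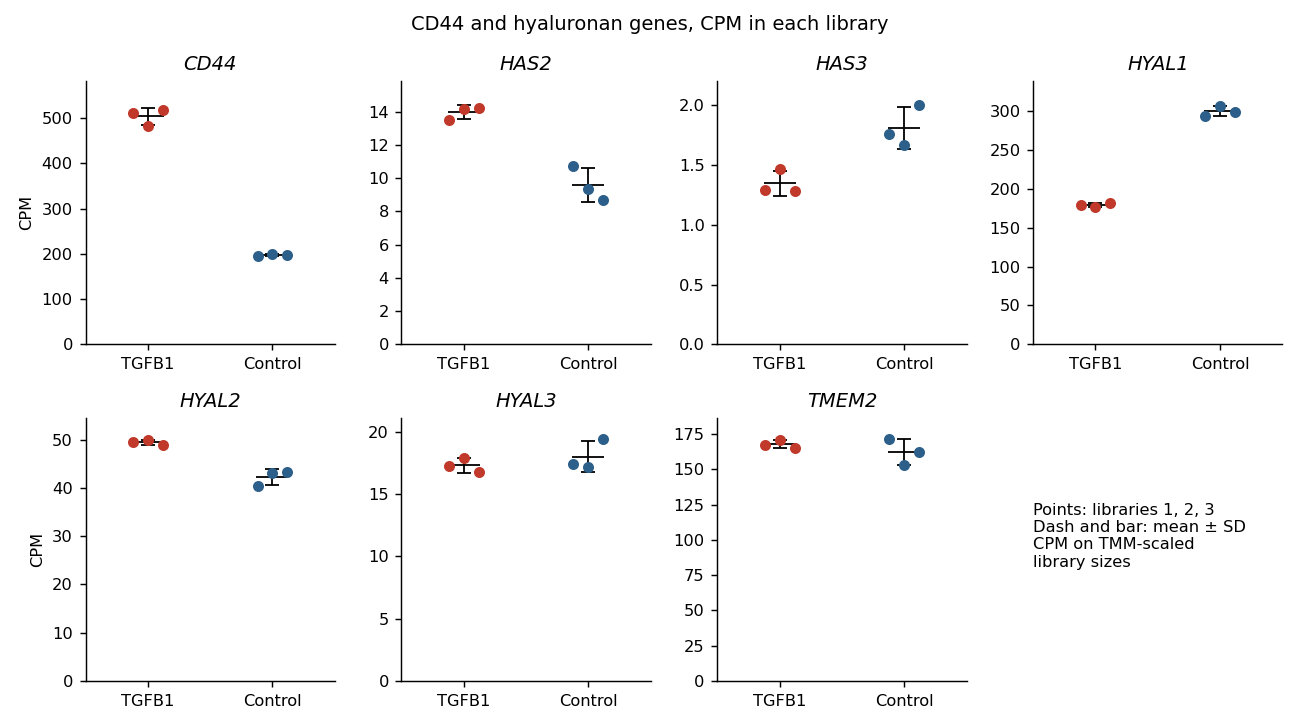
CPM of each of the 7 genes in each library, with TGFB1 left of Control in every panel and each axis starting at 0. Points are libraries, and the dash and bar are the mean ± SD of 3 libraries. CD44 lay at 484 to 518 CPM in TGFB1 libraries, against 196 to 199 CPM in Control libraries, while the points of HYAL3 and TMEM2 overlap.

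CD44 had 512, 484 and 518 CPM in TGFB1 libraries 1, 2 and 3, against 196, 199 and 197 CPM in Control libraries 1, 2 and 3. All TGFB1 libraries stood far above all Control libraries, and the Control libraries lay close together. The mean was 505 ± 18.4 CPM in TGFB1 cells and 197 ± 1.61 CPM in Control cells (SD, n = 3 each). The log2 fold change was 1.36 ± 0.0471 (SE, 95% interval 1.26 to 1.45, edgeR adjusted p = 1.23e-19). These values rest on 22314 TGFB1 and 8475 Control counts. CD44 was well expressed in the untreated cells already. Averaged over all 6 libraries, it stood above 97.2% of tested genes, and its absolute log2 fold change exceeded that of 94.2% of them. A larger rise was called for 506 genes.

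In RNA from a whole culture, fewer cells of a type and less RNA per cell cannot be told apart. Fibroblasts also express CD44, and of 10 fibroblast markers 5 were tested, COL1A1, DCN, PDGFRB, THY1 and FAP, and called higher in TGFB1 cells. Only the TGFB1 libraries carried FAP past the count filter, which fixed its direction. THY1 reached the filter level in 3 TGFB1 libraries and 1 Control library, and the Control libraries alone would not have kept it. The summed level of the 10 markers was 121 to 137 CPM in TGFB1 libraries, against 91.7 to 95.4 CPM in Control libraries. Most of it came from COL1A1, at 105 CPM in TGFB1 and 81.3 CPM in Control cells. DCN stood at 7.54 CPM in TGFB1 and 3.37 CPM in Control cells, and PDGFRB at 14.8 CPM in TGFB1 and 7.99 CPM in Control cells. THY1 had 20, 21 and 11 counts in TGFB1 libraries and 7, 12 and 4 counts in Control libraries, and FAP had 17, 22 and 12 counts in TGFB1 libraries and 0, 0 and 1 counts in Control libraries. COL1A2, COL3A1 and PDGFRA did not exceed 0.0659 CPM in either group, LUM was at 0.0755 CPM in TGFB1 and 0.214 CPM in Control cells, and ACTA2 at 0.566 CPM in TGFB1 and 0.535 CPM in Control cells. Whether any fibroblasts were present, or had a part in the CD44 difference, was not tested.

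The genes with the profiles closest to that of CD44 over the 6 libraries were ARHGEF18, RALA and VMP1, out of 11421 tested genes whose mean log2 CPM reached 2. Closeness was the Euclidean distance between log2 CPM profiles, each centred on its own mean, and was 0.0704, 0.0863 and 0.0932 for these 3. VMP1 averaged 476 ± 11.3 CPM in TGFB1 cells and 185 ± 5.70 CPM in Control cells. RALA, a small GTPase, averaged 156 ± 2.77 CPM in TGFB1 cells and 61.3 ± 0.636 CPM in Control cells. Such a list picks genes with the same step between the groups and is a description only.

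HAS2 encodes the synthase known for long hyaluronan chains. It had 13.5, 14.2 and 14.3 CPM in TGFB1 libraries 1, 2 and 3, against 10.7, 9.37 and 8.68 CPM in Control libraries 1, 2 and 3. The groups did not overlap, but Control 1 lay closer to the TGFB1 libraries than Control 2 and 3 did. The mean was 14.0 ± 0.406 CPM in TGFB1 cells and 9.59 ± 1.04 CPM in Control cells, with a log2 fold change of 0.55 ± 0.110 (95% interval 0.32 to 0.77, edgeR adjusted p = 0.000139). HAS2 had 620 TGFB1 and 411 Control counts, and its mean level was above that of 37.9% of tested genes.

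HAS2-AS1, an antisense transcript of the same locus, overlaps 4.80% of the exon bases of HAS2 in GENCODE 29. Without a stated strand setting, reads from the overlap cannot be told apart. HAS2-AS1 had 27, 41 and 26 counts in TGFB1 libraries, against 20, 18 and 21 counts in Control libraries. All TGFB1 libraries were above all Control libraries, with a log2 fold change of 0.62 ± 0.261 that did not pass (edgeR adjusted p = 0.0515). TMEM42, PCOLCE and MEX3C had the profiles closest to that of HAS2, at distances of 0.0741 to 0.1002.

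HAS3, the synthase known for shorter chains, was counted sparsely, with 19, 24 and 17 counts in TGFB1 libraries and 24, 24 and 30 counts in Control libraries. In CPM this was 1.29, 1.47 and 1.28 in TGFB1 libraries, against 1.76, 1.67 and 2.00 in Control libraries. Each TGFB1 library lay below each Control library, yet the difference did not pass the test (log2 fold change −0.42 ± 0.265, 95% interval −0.96 to 0.12, edgeR adjusted p = 0.203). The interval covers levels of 0.513 to 1.09 times that in Control cells, and a difference was not detectable at this depth. In GENCODE 29, CHTF8 on the opposite strand overlaps 6.90% of the exon bases of HAS3. CHTF8 averaged 82.6 ± 4.82 CPM in TGFB1 cells and 82.9 ± 4.33 CPM in Control cells. Without a stated strand setting, reads from that overlap cannot be told apart, which also limits the HAS2 share given below. The 3 TGFB1 and 3 Control libraries did not overlap for 5 of the 7 genes, against 54.2% of all tested genes. HAS1, the remaining synthase gene, had 0 TGFB1 counts and 2 Control counts and was not tested.

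HAS2 made up 91.2% ± 0.564 of the HAS2 and HAS3 counts in TGFB1 libraries and 84.0% ± 2.44 in Control libraries (SD, n = 3 each). By library the share was 91.3%, 90.6% and 91.7% in TGFB1 cells, against 85.9%, 84.9% and 81.25% in Control cells. The groups did not overlap, though the Wilson 95% intervals of single libraries did, at 86.8% to 94.3% in TGFB1 1 and 79.9% to 90.3% in Control 1. The exact permutation test over libraries, two-sided, gave p = 0.1, the smallest that 3 against 3 libraries allow. The summed level of both synthases was 15.3 ± 0.455 CPM in TGFB1 cells and 11.4 ± 0.953 CPM in Control cells.

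**Figure D2:**
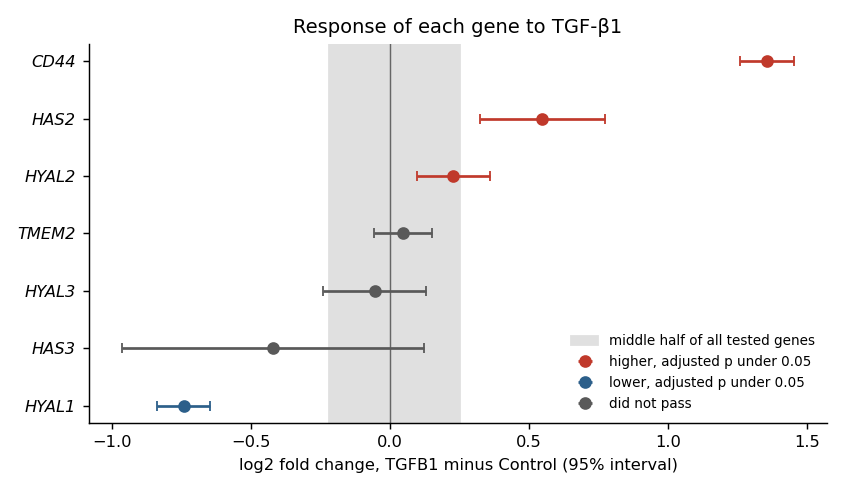
Log2 fold change of each gene, TGFB1 minus Control, with its 95% interval, ordered by size. The grey band runs from the lower to the upper quartile of all tested genes, −0.22 to 0.25. The points of CD44 and HAS2 lie above the band and those of HYAL1 and HAS3 below it, while the intervals of TMEM2, HYAL3 and HAS3 cross 0.

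HYAL1 encodes the acid-active hyaluronidase that is also found in serum. It had 179, 177 and 182 CPM in TGFB1 libraries 1, 2 and 3, against 294, 307 and 299 CPM in Control libraries 1, 2 and 3. The groups were far apart, and the libraries of each group lay close together. The mean was 179 ± 2.50 CPM in TGFB1 cells and 300.05 ± 6.78 CPM in Control cells, with a log2 fold change of −0.74 ± 0.0464 (95% interval −0.84 to −0.65, edgeR adjusted p = 7.87e-14). It rested on 7941 TGFB1 and 12908 Control counts. Of all tested genes 6.39% had a lower log2 fold change. EFHD2, TACC2 and AVPI1 had the closest profiles, at distances of 0.0433, 0.0468 and 0.0582.

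HYAL2, anchored at the cell surface and known for the first cuts in long chains, moved the other way by a small amount. It had 49.6, 50.0 and 48.9 CPM in TGFB1 libraries, against 40.4, 43.0 and 43.4 CPM in Control libraries. Every TGFB1 library stood above every Control library. The log2 fold change was 0.23 ± 0.0638 (95% interval 0.10 to 0.36, edgeR adjusted p = 0.00415), and 48.9% of tested genes had a smaller absolute log2 fold change. EMP3, C1orf216 and SLC39A4 had the closest profiles, at distances of 0.0346, 0.0381 and 0.0402.

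HYAL3, a relative of both whose own enzyme activity is uncertain, had 17.3, 17.9 and 16.8 CPM in TGFB1 libraries, against 17.4, 17.1 and 19.4 CPM in Control libraries. The groups overlapped, and the log2 fold change was −0.06 ± 0.0903 (95% interval −0.24 to 0.13, edgeR adjusted p = 0.651). The interval covers levels of 0.846 to 1.09 times that in Control cells. HYAL1, HYAL2 and HYAL3 lie next to each other on chromosome 3. In GENCODE 29, 11.2% of the exon bases of HYAL2 are shared with TUSC2 and 14.3% of those of HYAL3 with NAA80 and IFRD2, and reads that fall there may be missing from these counts. HYAL1 shares no exon base with another gene. TUSC2 did not pass, at 32.2 ± 2.52 CPM in TGFB1 cells and 33.3 ± 1.70 CPM in Control cells. NAA80, counted under its older symbol NAT6, did not pass either (edgeR adjusted p = 0.349). It was at 17.3 ± 2.35 CPM in TGFB1 cells and 15.9 ± 1.28 CPM in Control cells. IFRD2 was called higher, at 164 ± 5.73 CPM in TGFB1 cells and 149 ± 7.05 CPM in Control cells (log2 fold change 0.14 ± 0.0506, edgeR adjusted p = 0.0269).

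Within the hyaluronidase genes the balance differed between the groups, a comparison chosen after the values were seen. HYAL1 made up 72.9% ± 0.607 of the HYAL1, HYAL2 and HYAL3 counts in TGFB1 libraries and 83.3% ± 0.542 in Control libraries. HYAL2 made up 20.1% ± 0.334 in TGFB1 libraries and 11.7% ± 0.246 in Control libraries. HYAL3 made up 7.03% ± 0.274 in TGFB1 libraries and 4.99% ± 0.351 in Control libraries. No TGFB1 library overlapped a Control library in any of these shares (exact permutation test, two-sided, p = 0.1 for each, the smallest that 3 against 3 libraries allow). A share within these counts does not depend on library scaling, and it shows unequal change rather than which gene moved. The summed level of the 3 genes was 246 ± 1.39 CPM in TGFB1 cells and 360.3 ± 8.11 CPM in Control cells.

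**Figure D3:**
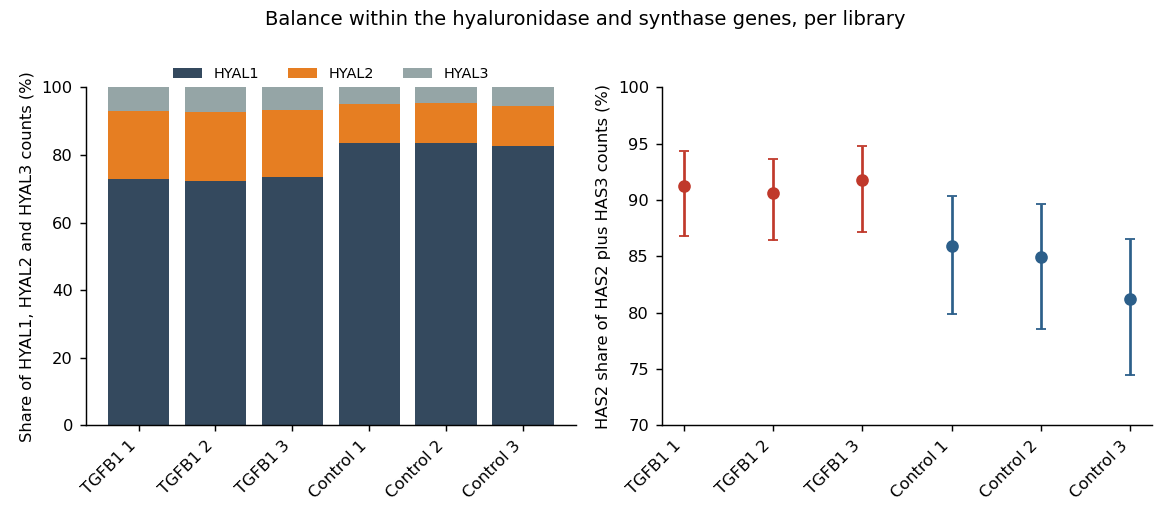
Left, share of HYAL1, HYAL2 and HYAL3 in their summed counts for each library, as stacked bars in percent. Right, HAS2 share of HAS2 plus HAS3 counts in percent, with the Wilson 95% interval for counting error and an axis that starts at 70. HYAL1 takes 72.2% to 73.5% in TGFB1 libraries, against 82.7% to 83.6% in Control libraries.

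TMEM2, also called CEMIP2, encodes a transmembrane protein reported to cut hyaluronan at the cell surface. It had 168, 171 and 165 CPM in TGFB1 libraries, against 172, 153 and 162 CPM in Control libraries. The groups overlapped, with both the highest and the lowest library in Control. The log2 fold change was 0.05 ± 0.0503 (95% interval −0.06 to 0.15, edgeR adjusted p = 0.476). With 7446 TGFB1 and 6980 Control counts, the interval covers levels of 0.962 to 1.11 times that in Control cells. Its relative KIAA1199 (CEMIP), a secreted hyaluronan-binding protein linked to hyaluronan breakdown, had 63 TGFB1 and 65 Control counts and did not pass (log2 fold change −0.09 ± 0.281, edgeR adjusted p = 0.822).

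Per kb of the longest annotated transcript, the order of levels in TGFB1 cells was CD44, HYAL1, TMEM2, HYAL2, HYAL3, HAS2 and HAS3, with no overlap between neighbours. In Control cells it was HYAL1, CD44, TMEM2, HYAL2, HYAL3, HAS2 and HAS3, and HYAL2 and HYAL3 overlapped there. CD44 stood at 88.0 ± 3.20 CPM per kb in TGFB1 cells and 34.4 ± 0.281 CPM per kb in Control cells. HYAL1 stood at 71.2 ± 0.993 CPM per kb in TGFB1 cells and 119 ± 2.69 CPM per kb in Control cells. The place of CD44 above HYAL1 in TGFB1 cells depends on the length used: divided by all exons together, HYAL1 was at 57.3 and CD44 at 50.4 CPM per kb there. In Control cells HYAL1 was the higher with either length. HAS3 was lowest in both groups, at 0.319 ± 0.0246 CPM per kb in TGFB1 cells and 0.429 ± 0.0412 CPM per kb in Control cells.

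**Figure D4:**
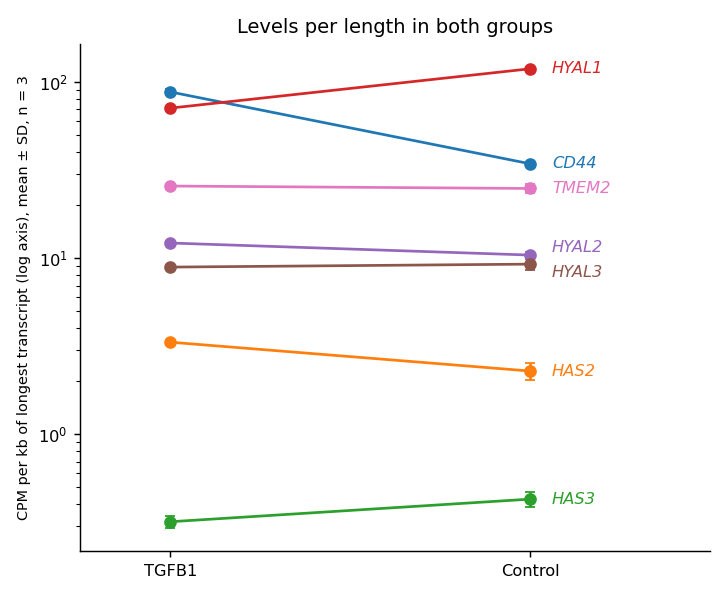
Level of each gene per kb of its longest transcript on a log axis, TGFB1 left and Control right, as mean ± SD of 3 libraries, with a line joining the groups. The lines of CD44 and HYAL1 cross, at 88.0 and 71.2 CPM per kb in TGFB1 cells and 34.4 and 119 CPM per kb in Control cells.

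Around these genes, a list of 67 genes of hyaluronan supply, breakdown and binding and of CD44 function, 6 of them among the 7 genes, held 43 tested genes. Of these 13 rose, 12 fell and 18 did not pass. Outside the 7 genes, 11 of 37 tested genes rose, 11 fell and 15 did not pass, so 59.5% were called, against 47.3% of all tested genes. Their median log2 fold change was −0.03. TNFAIP6 and AMBP passed the count filter through 1 group alone, which fixed their direction, and without them 10 of 35 rose, 10 fell and 15 did not pass, or 57.1% called. The changes thus ran in both directions, role by role as follows.

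Among 9 genes that make the sugar precursors 4 rose, 3 fell and 2 did not pass. UGDH, which makes UDP-glucuronic acid, averaged 112 ± 3.22 CPM in TGFB1 cells and 211 ± 6.48 CPM in Control cells (log2 fold change −0.91 ± 0.0492, edgeR adjusted p = 2.80e-15). UAP1, which makes UDP-N-acetylglucosamine, rose to 153 ± 5.40 CPM in TGFB1 cells, against 91.2 ± 3.86 CPM in Control cells (edgeR adjusted p = 1.34e-12). GFPT1, the entry enzyme of the hexosamine pathway, averaged 87.6 ± 4.57 CPM in TGFB1 cells and 139 ± 3.92 CPM in Control cells (edgeR adjusted p = 2.10e-11). Its paralog GFPT2, chosen after its values were seen, rose by 0.97 on the log2 scale.

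Among 8 tested genes of breakdown, HYAL1, HYAL2, HYAL3 and TMEM2 included, 1 rose, 2 fell and 5 did not pass. GUSB, the lysosomal β-glucuronidase, did not pass (log2 fold change −0.08 ± 0.0606, edgeR adjusted p = 0.325). HYAL4 and SPAM1 had 0 counts in all libraries.

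Of 7 other hyaluronan receptor genes 2 were tested, and both fell. TLR4, a pattern receptor that can sense hyaluronan fragments, averaged 2.31 ± 0.521 CPM in TGFB1 cells and 11.7 ± 1.26 CPM in Control cells (edgeR adjusted p = 1.11e-12). HMMR, a spindle protein that also binds hyaluronan, was 1.21-fold lower, at 69.7 ± 1.22 CPM in TGFB1 cells and 84.2 ± 1.56 CPM in Control cells (edgeR adjusted p = 0.000179). LYVE1 had 1 count in all.

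Of 19 hyaluronan-binding matrix and serum protein genes 5 were tested, of which 2 rose, 2 fell and 1 did not pass. TNFAIP6, the secreted link-module protein TSG-6 that transfers heavy chains onto hyaluronan, had 60, 49 and 38 counts in TGFB1 libraries and 0, 1 and 0 counts in Control libraries. The scaled ratio was 143 (exact 95% counting interval 25.2 to 5670). Only the TGFB1 libraries carried it past the count filter, which fixed its direction. AMBP, whose product includes bikunin, the light chain of the heavy-chain donor, had 2, 9 and 2 counts in TGFB1 libraries and 44, 28 and 44 counts in Control libraries, and only the Control libraries carried it past the filter. C1QBP, a mitochondrial protein also named hyaluronan-binding protein, fell by 0.26 on the log2 scale in TGFB1 cells (edgeR adjusted p = 8.17e-05).

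Among 5 genes that link CD44 to the cytoskeleton 2 rose and 3 did not pass. MSN (moesin) averaged 1401 ± 54.2 CPM in TGFB1 cells and 803 ± 14.3 CPM in Control cells, with a log2 fold change of 0.80 ± 0.0457 (edgeR adjusted p = 9.90e-15). EZR (ezrin) was 1.11-fold higher, at 467 ± 9.30 CPM in TGFB1 cells and 419 ± 8.15 CPM in Control cells (edgeR adjusted p = 0.00536). ANK3 (ankyrin G) did not pass, at 8.17 ± 0.926 CPM in TGFB1 cells and 9.38 ± 0.890 CPM in Control cells (edgeR adjusted p = 0.217).

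Of 7 tested genes for the cleavage of CD44 2 rose, 2 fell and 3 did not pass. ADAM10, a protease that sheds the CD44 ectodomain, averaged 89.2 ± 1.75 CPM in TGFB1 cells and 74.4 ± 4.39 CPM in Control cells (edgeR adjusted p = 0.000418). The γ-secretase subunit genes PSEN2 and NCSTN moved apart, with log2 fold changes of 0.33 ± 0.0806 and −0.20 ± 0.0477 (edgeR adjusted p = 0.00112 for each). MMP14, another sheddase gene, had 10 TGFB1 and 14 Control counts and was not tested.

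Of 5 tested splicing regulators known to act on CD44 exons 1 rose, 1 fell and 3 did not pass. ESRP2, which favours the epithelial variant isoforms, averaged 42.1 ± 2.86 CPM in TGFB1 cells and 65.4 ± 1.21 CPM in Control cells (log2 fold change −0.64 ± 0.0643, edgeR adjusted p = 2.29e-09). Its paralog ESRP1 was listed at 0 in all 6 libraries. RBFOX2 averaged 118 ± 8.52 CPM in TGFB1 cells and 89.5 ± 6.89 CPM in Control cells (edgeR adjusted p = 3.66e-06). KHDRBS1 (SAM68) did not pass (log2 fold change 0.11 ± 0.0465, edgeR adjusted p = 0.0610). Scaled by library size alone, it was called (edgeR adjusted p = 0.00444). The isoforms of CD44 were not measured.

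**Figure D5:**
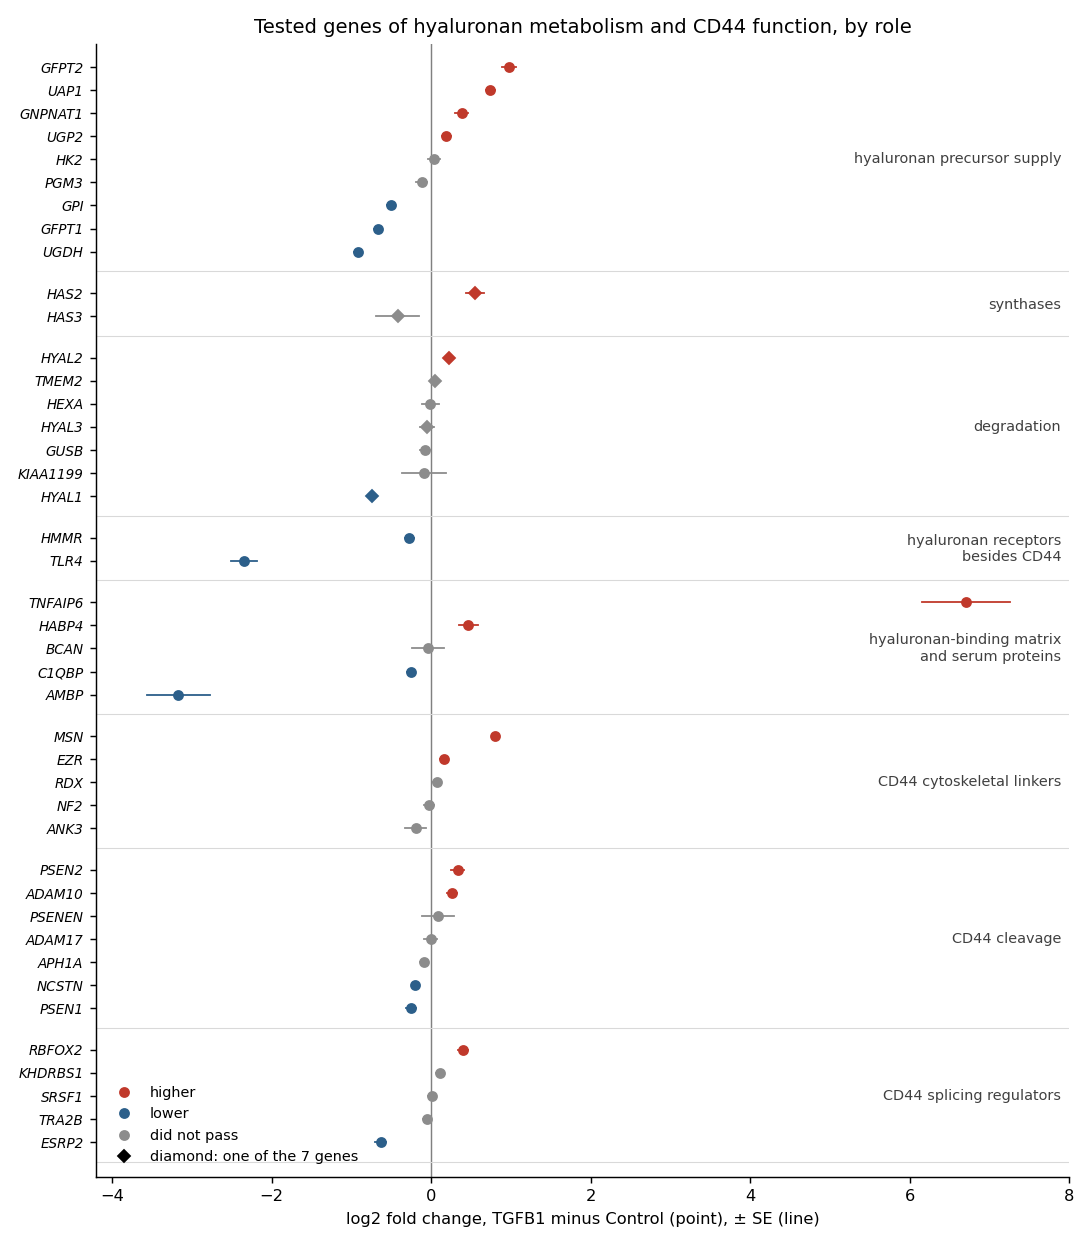
Log2 fold change, TGFB1 minus Control, with its SE for 42 of the 43 tested genes of the list, grouped by role. Red points were higher, blue points lower and grey points did not pass at an adjusted p of 0.05, and diamonds mark genes among the 7. Among the points shown, each role other than the synthases, the receptors besides CD44 and the linkers holds both red and blue points.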

How the data were processed

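RNA from 3 TGFB1 and 3 Control libraries was sequenced, and the authors deposited 1 table of raw read counts per gene symbol for each library, without normalization. TopHat2 2.0.11, TopHat, HTSeq and the builds hg19 and GRCh37 are named in the submitters' processing notes, with no role or order. No source used here gives the annotation, strand setting or read filters. Lines that name no gene stayed out of library sizes: no feature (5.44% to 5.98% of all counts, these lines included), ambiguous (9.01% to 9.43%) and not uniquely aligned (12.0% to 12.5%).

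Counts were filtered with filterByExpr (minimum count 10, minimum total 15), which kept 14897 genes. They were scaled by TMM (factors 1.015 to 1.024 in TGFB1 and 0.975 to 0.986 in Control libraries). Testing used the robust quasi-likelihood fit of edgeR 4.0.16. The procedure was also run on simulated counts with far fewer changed genes than were called here. That run does not check it where so many genes change. Standard errors were derived from each fold change with its F statistic. Pairs of libraries within a group differed beyond counting noise (chi-square per degree of freedom 1.76 to 4.34), so none was merged, which does not show separate cultures. Alternatives were DESeq2 1.42.0, limma-voom (limma 3.58.1), other scalings and filters, a replicate block, and fits without 1 library each.

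The members and lists were chosen with earlier results of these data known. Named by rule were the 7 genes, the 3 tested genes with the lowest p in each role of the list, and the 3 closest profiles of CD44 and of each called gene. Lengths and exon overlaps are from GENCODE 29 (GRCh38), used without coordinates since its build differs. The Wilson intervals of shares, the exact intervals of count ratios and the floors cover counting error only, as the reads carry no molecular identifiers. The intervals of fold changes come from the edgeR fit and also include the spread among libraries. 1 gene under that rule stays in the counts but is not reported here.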

Additional observations from a re-analysis of the deposited data

How the results depend on the processing

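The same 4 genes, CD44, HAS2, HYAL1 and HYAL2, were called under all 13 alternatives to the test, and none of the other 3 was called under any. CD44 kept a log2 fold change of 1.34 to 1.41, HAS2 0.47 to 0.63, HYAL1 −0.76 to −0.69 and HYAL2 0.19 to 0.28. The largest adjusted p of HYAL2 was 0.0266, without Control 1. HAS3 ran from −0.49 to −0.35. HYAL3 changed sign with scaling by library size alone (0.0014, adjusted p = 0.992), and TMEM2 without Control 2 (−0.0011, adjusted p = 0.990), in a range of −0.0011 to 0.0837 without 1 library; neither passed in any setting. KIAA1199 changed sign without TGFB1 1 (0.069, adjusted p = 0.883) and did not pass. The cause was not tested. With lengths of all exons together, chosen after seeing the data, CD44 minus HYAL1 in TGFB1 cells was −6.81 CPM per kb, against 16.8 with the longest transcript.

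Leaving out 1 library gave 6115 to 6816 called genes over the whole table (7044 with all) and 25 called genes of the list of 67 each time, and moved the HAS2 share difference of 7.21 percentage points to 5.82 to 8.14. With the replicate number as a block, 6775 genes and the same 4 of the 7 were called. Libraries with the same number correlated at 0.0306, −0.107 and −0.0481 in their deviations, and those with different numbers at −0.093 to 0.138. These values cannot show whether libraries with the same number share more than a number. Low counts limit HAS3, HAS2-AS1 and KIAA1199.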

Other observations

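Some hyaluronan-binding genes were counted too little to be tested, and they are named here after their values were seen. VCAN, the large matrix proteoglycan versican that binds hyaluronan, had 26 TGFB1 counts and 2 Control counts, a scaled ratio of 12.6 with an exact 95% counting interval of 3.16 to 109.6. HAPLN3, a link protein that holds proteoglycans on hyaluronan, had 33 TGFB1 and 5 Control counts, a ratio of 6.403 (2.48 to 21.0). STAB2, a scavenger receptor that clears hyaluronan in liver, had 23 TGFB1 and 6 Control counts, a ratio of 3.72 (1.47 to 11.2). In the other direction, STAB1, a scavenger receptor related to STAB2, had 4 TGFB1 and 17 Control counts, a ratio of 0.228 (0.0559 to 0.6998), and HAPLN2, another link protein, had 6 TGFB1 and 13 Control counts, a ratio of 0.448 (0.1395 to 1.26). These intervals compare pooled libraries and cover counting error only. PTX3, TLR2 and HAPLN4 had 0 counts in all libraries.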
